A study of Mus musculus with 9 samples.

Results

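The genes described here are integrins and cadherins, the main receptors by which cells hold on to matrix and to each other. They were chosen by symbol: every gene named alone by a probe set and whose symbol is Itga, Itgb or Cdh followed by digits or small letters. This gave 55 genes of the 18193 on the array, measured by 110 probe sets, with the probe set of highest mean signal over the 9 arrays standing for each gene. They comprise 25 integrin subunit genes (16 alpha and 9 beta), 26 cadherin and cadherin-related genes, and 4 genes that share the symbol pattern without being subunits (Itgb1bp1, Itgb1bp2, Itgb3bp and Itgbl1). RNA came from mature 3T3-L1 cells, a mouse preadipocyte line turned into fat cells in culture. The groups were hairpin 1 against Ebf1, hairpin 2 against Ebf1 and a scrambled control hairpin, with 3 arrays each. All cells carried a hairpin lentivirus and puromycin selection, the scrambled ones included. Each hairpin is 1 construct in 1 cell line, and the titles do not say whether repeats came from separate cultures, so p-values describe the scatter among these arrays alone, and that scatter may be technical.

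Integrins are pairs of an alpha and a beta chain: the alpha chain largely sets which matrix protein is bound, and the beta tail recruits talin, kindlin and other adaptors to actin. Classical cadherins bind like cadherins on the neighbouring cell and hold catenins with their tails. In cultured mouse preadipocytes a change from Itga5 to Itga6 has been described as they become fat cells, and the cadherin Cdh13 is a receptor for adiponectin, the protein hormone that fat cells secrete. Ebf1 is a transcription factor of fat and B cells.

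Ebf1 itself was lower with each hairpin. It read 9.32, 9.54 and 9.45 on the log2 scale with hairpin 1 and 8.90, 8.72 and 9.20 with hairpin 2, against 10.12, 10.15 and 10.31 with the scrambled hairpin. The difference was -0.75 with hairpin 1 (SE 0.113, limma adjusted p = 0.000102) and -1.25 with hairpin 2 (adjusted p = 2.98e-07). Arrays of a group correlated at 0.994 to 0.998 and arrays of different groups at 0.974 to 0.989, over tested genes. Of 8 fat cell markers, Adipoq, Fabp4, Lpl, Retn and Slc2a4 were not called against scrambled. Pparg fell with both hairpins, Cidec fell with hairpin 2 and Lep lay below the signal filter. The list's mean level was 12.51 to 12.59 with hairpin 1 and 12.45 to 12.48 with hairpin 2, against 12.52 to 12.61 with the scrambled hairpin. Adipoq, Fabp4 and Lpl averaged 14.81, 14.89 and 14.72, near the array maximum of 15, where differences are compressed. Their lack of a call and the level list mean therefore do not show that fat cell genes were unchanged. The signal filter was a mean of 5.72 over the arrays. It was passed by 6 of 10 leukocyte, 2 of 8 endothelial and 3 of 6 muscle markers. The leukocyte marker Ptprc, the endothelial Pecam1 and the muscle Myod1 lay below it. The leukocyte Laptm5, the endothelial Kdr and Esam and the muscle Des and Acta1 lay above it, and Kdr and Esam were not called. The filter was also passed by 5 of 7 epithelial and 2 of 5 neural and glial markers, the latter not called. The epithelial Krt18 (-1.31 and -1.41) and Esrp1 (-0.89 and -1.15) fell with hairpins 1 and 2. Their hairpin means lay below the filter, which they passed through their scrambled arrays. Epcam rose with hairpin 1 (0.41), and Krt5 and Krt8 were not called. Of 9 fibroblast and preadipocyte markers, every one (9) was raised by hairpin 1, while hairpin 2 raised 7 and lowered Dlk1; their mean level per array was 11.84 to 12.03 with hairpin 1 and 11.75 to 11.79 with hairpin 2, against 10.83 to 11.05 with the scrambled hairpin. In bulk RNA, fewer cells of a type and less RNA per cell cannot be told apart, and the part of this list's rise in the results below was not tested.

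**Figure D1:**
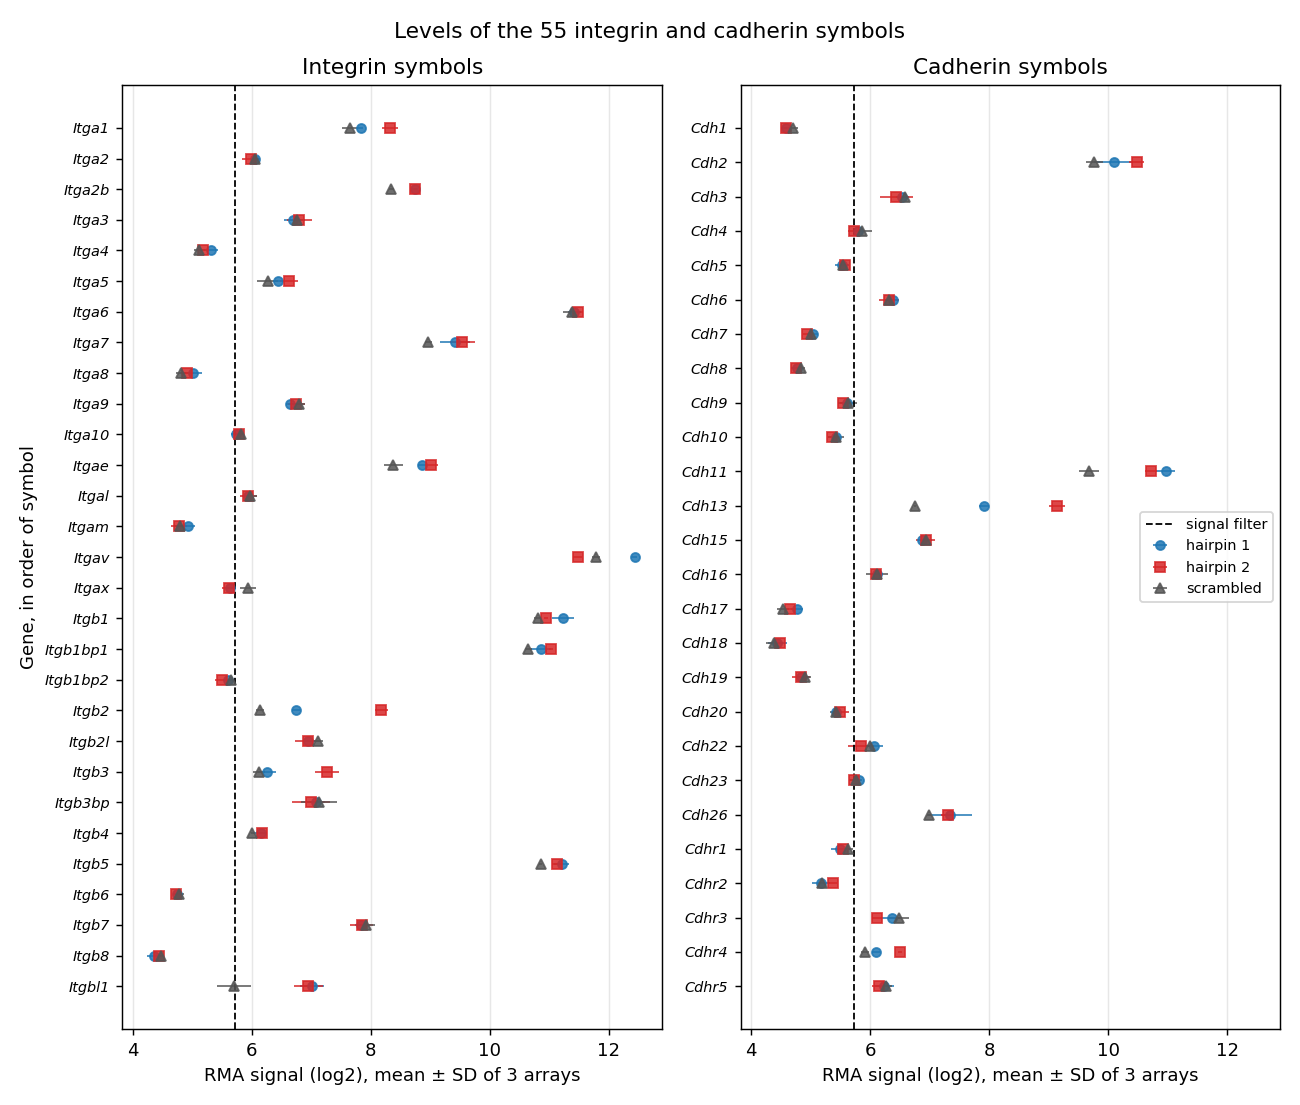
Mean signal (log2, horizontal axis) of each of the 55 genes with its SD over 3 arrays, for hairpin 1, hairpin 2 and scrambled arrays, with the signal filter as a dashed line. Most symbols near or below the filter show 3 overlapping groups, while Cdh13, Cdh11, Itgb2, Itgb3 and Itgbl1 show groups set apart; levels of different genes come from different probe sets and are not compared.

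Of the 55 genes, 37 passed the signal filter and 18 did not. With hairpin 1, 10 of the 37 rose and 1 fell, which is 29.7% called, against 33.0% of all 12735 genes tested (23.7% higher and 9.23% lower). With hairpin 2, 14 rose and 3 fell, which is 45.9% called, against 34.8% of all genes (21.5% higher and 13.3% lower). These counts include Itgax, which passed the filter through its scrambled arrays, and Itgbl1, which passed through its hairpin arrays. A call was to be expected of both, and the shares of all genes used the same filter. The median log2 difference was 0.08 with hairpin 1 and 0.03 with hairpin 2, close to the medians of all genes, 0.07 and 0.02. The share called was thus near the background with hairpin 1 and above it with hairpin 2, a difference that was not tested. Between the hairpins, 6 genes were higher with hairpin 2 and 2 were lower, which is 21.6%, against 29.1% of all genes (11.6% higher and 17.4% lower). After quantile normalization the split of all genes with hairpin 1 was 2459 higher and 1700 lower, against 3023 and 1176 as deposited, and the members' counts stayed at 10 and 1. Both comparisons with scrambled use the same 3 scrambled arrays.

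**Figure D2:**
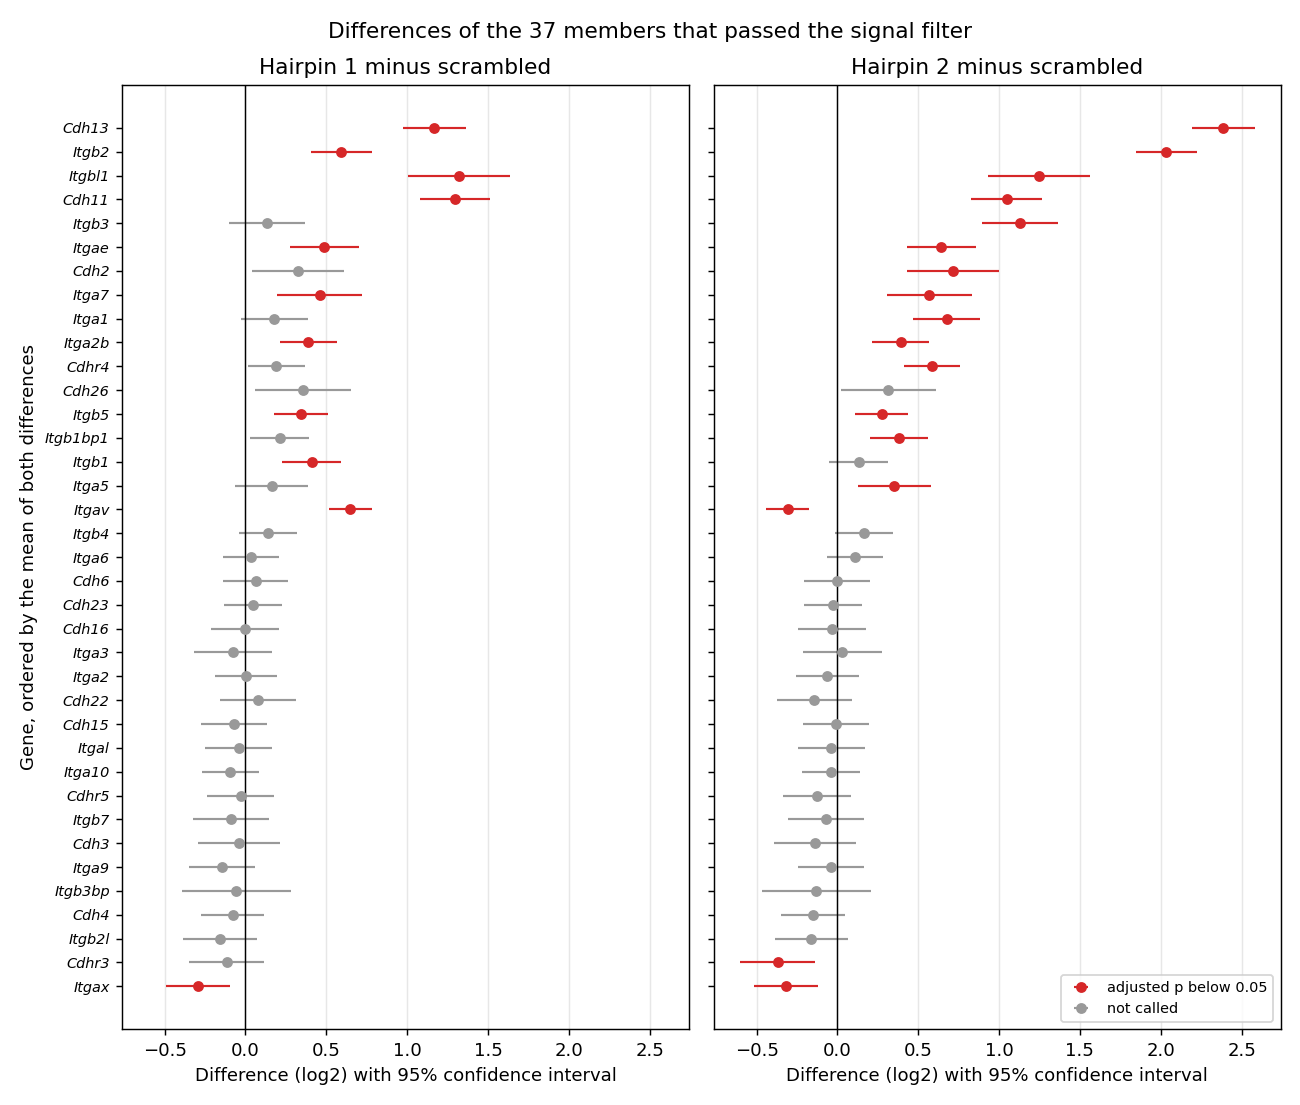
Log2 difference from scrambled (horizontal axis) with its 95% confidence interval for the 37 genes that passed the signal filter, with hairpin 1 on the left and hairpin 2 on the right; red marks an adjusted p below 0.05. Cdh13 and Itgb2 lie farthest to the right with hairpin 2, at 2.39 and 2.03, and Itgav lies on opposite sides of 0 in the 2 panels.

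With hairpin 2 the alpha chain gene Itgav and its beta partners did not move together. With hairpin 1 Itgav rose, as did Itgb1 and Itgb5, and Itgb3 was not called. Itgav encodes the chain that pairs with Itgb1, Itgb3, Itgb5, Itgb6 and Itgb8 in receptors for vitronectin, fibronectin and latent TGF-beta. It rose with hairpin 1 and fell with hairpin 2. Itgav read 12.49, 12.41 and 12.41 with hairpin 1 and 11.49, 11.40 and 11.55 with hairpin 2, against 11.85, 11.79 and 11.71 with the scrambled hairpin. No 2 groups overlapped. The differences were 0.65 with hairpin 1 (SE 0.0627, 95% interval 0.52 to 0.78, limma adjusted p = 1.19e-06) and -0.31 with hairpin 2 (95% interval -0.44 to -0.17, adjusted p = 0.00111). Set against hairpin 1 directly, hairpin 2 left Itgav 1.94-fold lower (-0.96, adjusted p = 2.41e-08).

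Itgb3, the partner of Itgav in the vitronectin receptor and of Itga2b on platelets, rose with hairpin 2. It read 7.10, 7.48 and 7.18 with hairpin 2 and 6.11, 6.41 and 6.25 with hairpin 1, against 6.15, 6.02 and 6.21 with the scrambled hairpin. The hairpin 2 arrays were all above the others, and the hairpin 1 and scrambled arrays overlapped. The rise was 2.19-fold with hairpin 2 (1.13, SE 0.111, adjusted p = 7.21e-07), and the value with hairpin 1 was 0.13 (95% interval -0.10 to 0.37, adjusted p = 0.393). The difference between hairpin 2 and hairpin 1 was itself called (1.00, adjusted p = 5.99e-06). So, by the probe sets used, Itgb3 and Itgav went in opposite directions with hairpin 2. The Itgb3 call rests on a probe set with a mean signal of 6.545. The other Itgb3 probe set, with a mean of 6.507, read 0.21 with hairpin 2 in a fit over all probe sets. That value did not pass (adjusted p = 0.27).

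Itgb5, the partner of Itgav that fat cells carry as a vitronectin receptor, rose with both hairpins. It read 11.07, 11.24 and 11.31 with hairpin 1 and 11.15, 11.22 and 11.04 with hairpin 2, against 10.87, 10.88 and 10.83 with the scrambled hairpin. The hairpin arrays all lay above the scrambled arrays. The differences were 0.34 (adjusted p = 0.00291) and 0.27 (adjusted p = 0.0115). The second was lost without repeat 2 of hairpin 2 (0.23, adjusted p = 0.0555). The probe set carries the Affymetrix suffix for probes that may also match other transcripts, and the other 3 Itgb5 probe sets rose with both hairpins too.

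Itgb1, the beta chain shared by most matrix-binding alpha chains, rose with hairpin 1. It read 11.02, 11.38 and 11.28 with hairpin 1 and 10.95, 10.92 and 10.98 with hairpin 2, against 10.75, 10.86 and 10.84 with the scrambled hairpin. The 3 groups did not overlap. The difference was 0.41 with hairpin 1 (SE 0.0860, adjusted p = 0.00171) and 0.13 with hairpin 2 (95% interval -0.05 to 0.32, adjusted p = 0.267). With the mean of all 6 Itgb1 probe sets the hairpin 1 value was 0.14 and no longer passed (adjusted p = 0.125). The chains Itgb6 and Itgb8 lay below the signal filter in all groups.

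**Figure D3:**
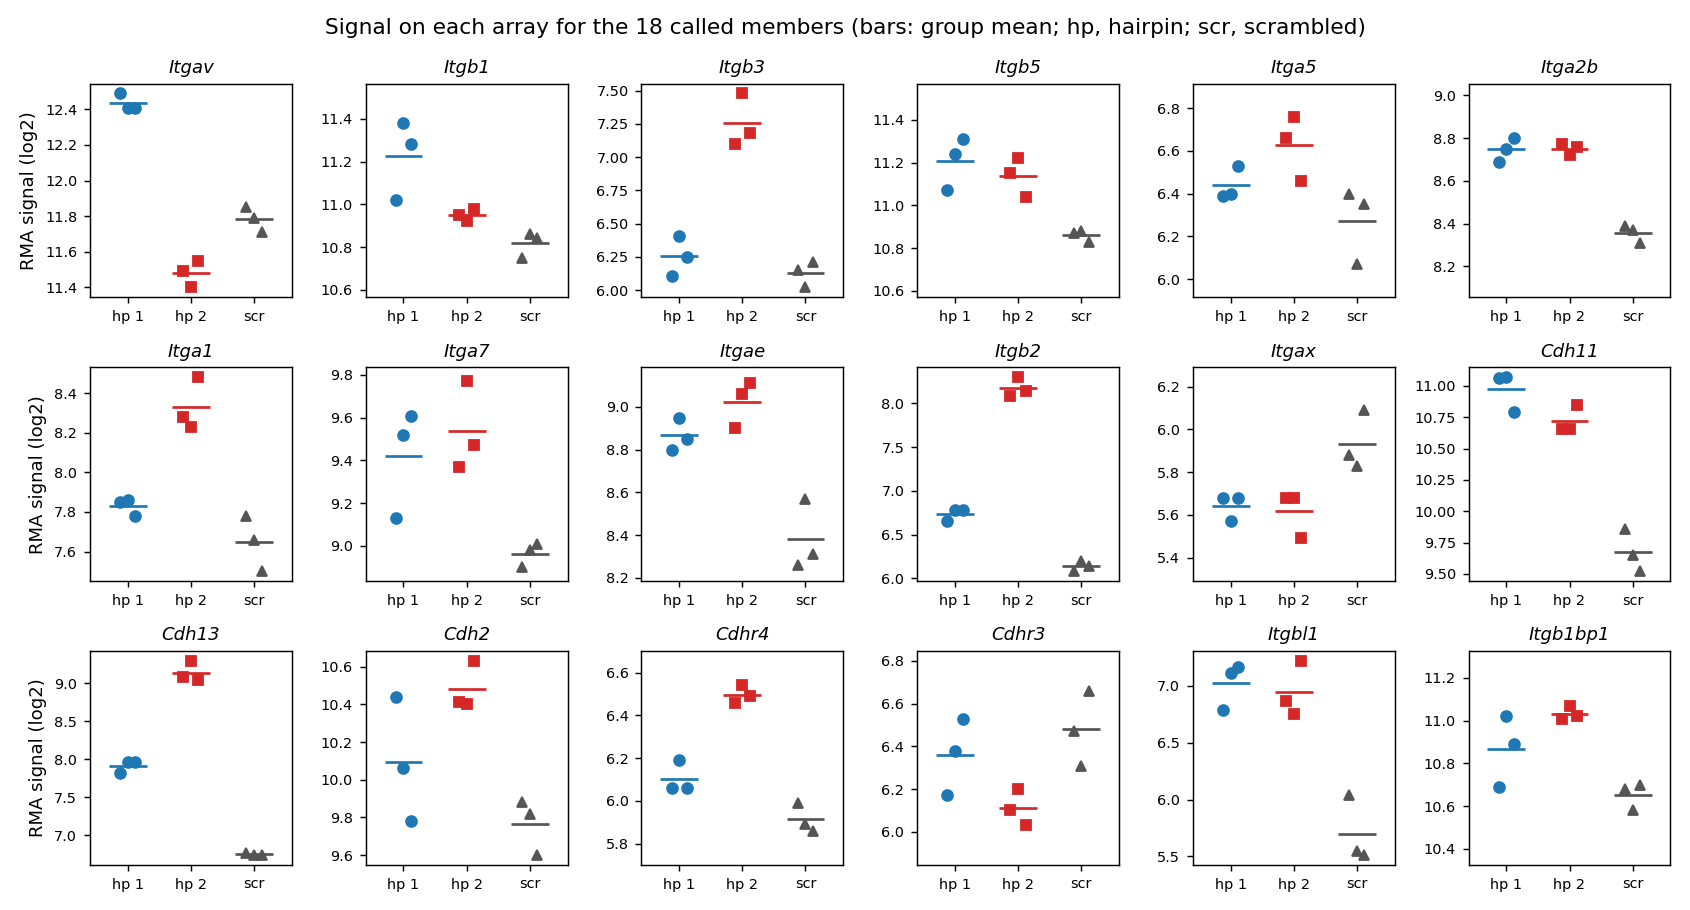
Signal (log2, vertical axis, scaled for each gene) on each of the 9 arrays for the 18 called genes, with hairpin 1, hairpin 2 and scrambled arrays from left to right and a bar at each group mean. Itgav is highest with hairpin 1 and lowest with hairpin 2, Itgb2, Itgb3 and Cdh13 are highest with hairpin 2, and Cdh11 and Itgbl1 are raised with both hairpins.

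Upstream sequence is shown for the alpha chain Itgav, for its partners Itgb1 and Itgb5, and for Itgbl1, because these genes moved in different directions or by different amounts. The 250 bases before each start site come from RefSeq on assembly GRCm38.p6, 5′ to 3′ along the gene's strand, which is the plus strand for all 4. Capitals mark a GC box, GGGCGG on either strand.
Itgav, chr2:83724147-83724396: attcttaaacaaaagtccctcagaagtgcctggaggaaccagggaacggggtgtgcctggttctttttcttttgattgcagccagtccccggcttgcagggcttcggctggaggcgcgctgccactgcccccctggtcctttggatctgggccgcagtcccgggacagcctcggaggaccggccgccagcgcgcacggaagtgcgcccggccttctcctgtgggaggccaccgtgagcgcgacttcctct
Itgb1, chr8:128685404-128685653: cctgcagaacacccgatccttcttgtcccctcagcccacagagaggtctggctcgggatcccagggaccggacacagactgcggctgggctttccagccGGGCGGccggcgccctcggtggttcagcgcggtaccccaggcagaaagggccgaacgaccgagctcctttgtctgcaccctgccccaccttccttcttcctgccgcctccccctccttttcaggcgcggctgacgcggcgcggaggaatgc
Itgb5, chr16:33829415-33829664: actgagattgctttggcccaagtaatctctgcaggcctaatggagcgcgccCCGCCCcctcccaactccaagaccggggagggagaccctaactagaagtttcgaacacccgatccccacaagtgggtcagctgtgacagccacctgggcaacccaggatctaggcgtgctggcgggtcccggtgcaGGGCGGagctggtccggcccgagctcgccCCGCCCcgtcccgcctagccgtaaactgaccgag
Itgbl1, chr14:123659890-123660139: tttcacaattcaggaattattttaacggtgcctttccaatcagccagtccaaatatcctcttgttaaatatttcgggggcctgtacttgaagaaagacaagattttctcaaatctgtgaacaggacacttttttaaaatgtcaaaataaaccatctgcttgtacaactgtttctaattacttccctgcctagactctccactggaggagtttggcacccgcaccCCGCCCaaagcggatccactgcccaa
The Itgav, Itgb1 and Itgb5 stretches were rich in G and C, at 64.4%, 68.0% and 65.2%, and held 18, 21 and 18 CG pairs, while the Itgbl1 stretch was 42.4% G and C with 5 CG pairs. Itgb5 held 3 GC boxes, Itgb1 and Itgbl1 1 each and Itgav 0. RefSeq promoters were matched by symbol for 37 of the 55 genes, in 41 entries, and for 11 of the 18 called genes; Cdh11, Cdh13, Cdh2, Itga7, Itgae, Itgb2 and Itgb3 had no entry. The letters CCCNNGGG, the inner part of the palindrome that EBF proteins bind, were found in 12.2% of the members' stretches and 11.8% of all 32851 stretches of the same length. A GC box was found in 29.3% of the members' stretches and 32.7% of all, and a TATA box, TATAAA on either strand, in 0 of 41 and 12.4% of all. No match says only that these letters are not in this window.

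Other fibronectin and fibrinogen receptors rose by small amounts. Itga5, which forms the classical fibronectin receptor with Itgb1, read 6.39, 6.40 and 6.53 with hairpin 1 and 6.66, 6.76 and 6.46 with hairpin 2, against 6.40, 6.07 and 6.35 with the scrambled hairpin. Its hairpin 2 arrays lay above the scrambled arrays, and its hairpin 1 arrays overlapped them. Its rise with hairpin 2 was 0.35 (adjusted p = 0.0159), and with hairpin 1 it read 0.16 (adjusted p = 0.264). The hairpin 2 call was lost without scrambled repeat 2 (0.25, adjusted p = 0.105) or hairpin 2 repeat 2 (0.28, adjusted p = 0.0806). Itga2b, the platelet fibrinogen receptor chain, read 8.69, 8.75 and 8.80 with hairpin 1 and 8.77, 8.72 and 8.76 with hairpin 2, against 8.39, 8.37 and 8.31 with the scrambled hairpin. The hairpin groups lay together and clear of the scrambled arrays, with differences of 0.39 (adjusted p = 0.00173) and 0.39 (adjusted p = 0.00132). Of 4 other platelet markers, Gp1bb rose with both hairpins and Pf4 with hairpin 2, Gp9 was not called and Ppbp lay below the filter. The list's mean level was 5.92 to 6.05 with hairpin 1 and 6.22 to 6.33 with hairpin 2, against 5.74 to 5.79 with the scrambled hairpin, and its part in the Itga2b rise was not tested.

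Among collagen and laminin receptors, Itga1 and Itga7 rose. Itga1, a collagen receptor chain that pairs with Itgb1, read 8.28, 8.23 and 8.48 with hairpin 2 and 7.85, 7.86 and 7.78 with hairpin 1, against 7.78, 7.66 and 7.50 with the scrambled hairpin. All hairpin 2 arrays were above all others. It rose 1.60-fold with hairpin 2 (0.68, SE 0.0979, adjusted p = 4.85e-05), and the value with hairpin 1 was 0.18 (adjusted p = 0.18). The direct difference was called (0.50, adjusted p = 0.00124). The other collagen-binding chains, Itga2 and Itga10, lay within 0.10 of scrambled with each hairpin and were not called.

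Itga7, a laminin receptor chain best known from muscle, rose with both hairpins. It read 9.13, 9.52 and 9.61 with hairpin 1 and 9.37, 9.77 and 9.47 with hairpin 2, against 8.90, 8.98 and 9.01 with the scrambled hairpin. Every hairpin array lay above every scrambled array. The differences were 0.46 (adjusted p = 0.0101) and 0.57 (adjusted p = 0.00193), and the first was lost without repeat 3 of hairpin 1 (0.36, adjusted p = 0.0588). Of 6 muscle markers, Des and Acta1 rose and Ckm fell with hairpin 1, Des rose with hairpin 2, and Myod1, Myog and Myh3 lay below the filter. The list's mean level was 6.81 to 6.88 with hairpin 1 and 6.68 to 6.78 with hairpin 2, against 6.57 to 6.74 with the scrambled hairpin, and its part in the Itga7 rise was not tested.

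Itga6, the laminin receptor chain that preadipocytes gain as they become fat cells, was not called. It read 11.33, 11.51 and 11.39 with hairpin 1 and 11.44, 11.44 and 11.57 with hairpin 2, against 11.21, 11.51 and 11.41 with the scrambled hairpin. The groups overlapped. The differences were 0.03 (95% interval -0.14 to 0.21) and 0.11 (-0.06 to 0.28). Itga3, another laminin receptor chain, was not called either, at -0.08 and 0.03.

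The leukocyte beta chain gene Itgb2 rose steeply with hairpin 2 while none of its 3 alpha partners among these genes was called as higher. Itgb2 pairs with Itgal, Itgam and Itgax in receptors by which white blood cells bind vessel walls and complement. It read 8.09, 8.30 and 8.14 with hairpin 2 and 6.65, 6.78 and 6.78 with hairpin 1, against 6.08, 6.20 and 6.14 with the scrambled hairpin. The 3 groups were fully apart. The rise was 4.10-fold with hairpin 2 (2.03, SE 0.0882, adjusted p = 3.72e-11) and 1.51-fold with hairpin 1 (0.59, adjusted p = 9.40e-05), and the direct difference was 1.44 (adjusted p = 1.21e-08). Itgal read 5.79 to 6.10 over all arrays and was not called, at -0.04 with each hairpin. Itgam lay below the filter, with group means of 4.93 with hairpin 1 and 4.78 with hairpin 2, against 4.79 with the scrambled hairpin.

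Itgax, the chain best known from dendritic cells, fell slightly with both hairpins near the floor. It read 5.68, 5.57 and 5.68 with hairpin 1 and 5.68, 5.68 and 5.49 with hairpin 2, against 5.88, 5.83 and 6.09 with the scrambled hairpin. The scrambled arrays were all above the hairpin arrays, which lay below the filter of 5.72. The differences were -0.29 (adjusted p = 0.0244) and -0.32 (adjusted p = 0.0134). They were lost without hairpin 1 repeat 2 (-0.26, adjusted p = 0.0931) and without hairpin 2 repeat 3 (-0.26, adjusted p = 0.056), and without any scrambled array Itgax itself dropped below the filter. Its mean lay at the 30.1st percentile of gene means, just above the filter's 30th. Itgax thus passed the filter through its scrambled arrays, so a call was to be expected of it.

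Itgae, whose chain pairs with Itgb7 and binds E-cadherin on epithelium, rose with both hairpins. It read 8.80, 8.95 and 8.85 with hairpin 1 and 8.90, 9.06 and 9.11 with hairpin 2, against 8.26, 8.57 and 8.31 with the scrambled hairpin. The hairpin arrays were all above the scrambled ones. The differences were 0.49 (adjusted p = 0.0015) and 0.64 (adjusted p = 0.000102), and both Itgae probe sets rose with both hairpins. Its partner Itgb7 was not called (-0.09 and -0.07), and the E-cadherin gene Cdh1 lay below the filter. Of 10 leukocyte markers, Laptm5 and Cd74 fell with both hairpins, and Cd68 was called as higher with hairpin 2. Cd68 averaged 6.84 with hairpin 2, and 5.65 with hairpin 1 and 5.67 with the scrambled hairpin, both below the filter of 5.72. It passed the filter through its hairpin 2 arrays, so a call was to be expected of it. Csf1r, Fcer1g and Cd3e were not called, and Ptprc, Adgre1, Aif1 and Tyrobp lay below the filter. The list's mean level was 6.02 to 6.20 with hairpin 1 and 6.12 to 6.35 with hairpin 2, against 6.24 to 6.34 with the scrambled hairpin.

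Among cadherins, Cdh13 and Cdh11 rose with both hairpins. Cdh13 encodes T-cadherin, which is held by a lipid anchor, lacks the catenin-binding tail of classical cadherins and binds adiponectin. It read 9.08, 9.29 and 9.04 with hairpin 2 and 7.82, 7.96 and 7.97 with hairpin 1, against 6.77, 6.74 and 6.74 with the scrambled hairpin. The groups were stepped and did not overlap. The rise was 5.23-fold with hairpin 2 (2.39, SE 0.0919, adjusted p = 8.60e-12) and 2.25-fold with hairpin 1 (1.17, adjusted p = 1.27e-07), and hairpin 2 exceeded hairpin 1 by 1.22 (adjusted p = 1.08e-07). Adipoq, the gene of its ligand, was not called and stood at a mean of 14.80 with hairpin 1 and 14.81 with hairpin 2, against 14.82 with the scrambled hairpin, near the top of the scale, where differences are compressed.

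Cdh11, a type II classical cadherin of mesenchymal cells and fibroblasts, read 11.06, 11.07 and 10.79 with hairpin 1 and 10.66, 10.66 and 10.85 with hairpin 2, against 9.86, 9.65 and 9.52 with the scrambled hairpin. All 6 hairpin arrays lay above the scrambled arrays. It rose 2.46-fold with hairpin 1 (1.30, SE 0.103, adjusted p = 1.33e-07) and 2.07-fold with hairpin 2 (1.05, adjusted p = 7.53e-07). The direct difference of -0.25 between hairpin 2 and hairpin 1 did not pass (95% interval -0.47 to -0.03, adjusted p = 0.0811), and it passed without repeat 3 of hairpin 1 (-0.34, adjusted p = 0.0305).

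Cdh2, the gene of N-cadherin, a type I classical cadherin of neural and mesenchymal cells, rose with hairpin 2. It read 10.41, 10.40 and 10.63 with hairpin 2 and 10.44, 10.06 and 9.78 with hairpin 1, against 9.88, 9.82 and 9.60 with the scrambled hairpin. The hairpin 1 arrays were spread widely, from scrambled levels to hairpin 2 levels. The difference was 0.71 with hairpin 2 (SE 0.133, adjusted p = 0.000517) and 0.33 with hairpin 1 (adjusted p = 0.0732). The hairpin 1 value passed with the mean of both probe sets (0.48, adjusted p = 0.000888) and without hairpin 1 repeat 3 (0.48, adjusted p = 0.00958). The direct difference between the hairpins (0.39, adjusted p = 0.0395) was lost in 9 of 18 alternatives, with adjusted p up to 0.211. In a fit over all probe sets, the other Cdh2 probe set, with a mean of 9.839, also rose with hairpin 1 (0.63, adjusted p = 0.000227). Between the hairpins that probe set read 0.27 and did not pass (adjusted p = 0.0718).

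The cadherin-related genes Cdhr4 and Cdhr3 moved apart with hairpin 2. Cdhr4 read 6.46, 6.54 and 6.49 with hairpin 2 and 6.06, 6.19 and 6.06 with hairpin 1, against 5.99, 5.89 and 5.86 with the scrambled hairpin. Its rise with hairpin 2 was 0.58 (adjusted p = 3.56e-05), and with hairpin 1 it read 0.19 (adjusted p = 0.0857). Cdhr3, known in humans as the receptor of a rhinovirus species, read 6.10, 6.20 and 6.03 with hairpin 2 and 6.17, 6.38 and 6.53 with hairpin 1, against 6.47, 6.31 and 6.66 with the scrambled hairpin. It fell with hairpin 2 (-0.37, adjusted p = 0.0142), a call lost without scrambled repeat 3 (-0.28, adjusted p = 0.0851) or hairpin 2 repeat 3 (-0.33, adjusted p = 0.0505). Both genes read within 1 log2 unit of the filter, where differences are compressed.

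The genes that share the symbol pattern without being subunits were led by Itgbl1. It encodes a secreted protein with repeats like those of integrin beta chains. It read 6.79, 7.11 and 7.17 with hairpin 1 and 6.87, 6.75 and 7.22 with hairpin 2, against 6.04, 5.55 and 5.51 with the scrambled hairpin. All hairpin arrays lay above the scrambled arrays, whose mean of 5.70 is below the filter. The gene passed the filter through its hairpin arrays, so a call was to be expected of it and no fold is given. The log2 differences were 1.32 with hairpin 1 (SE 0.148, adjusted p = 5.89e-06) and 1.25 with hairpin 2 (adjusted p = 6.21e-06).

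Itgb1bp1 encodes a protein that binds the Itgb1 tail and restrains the receptor's activation. It read 11.01, 11.07 and 11.02 with hairpin 2 and 10.69, 11.02 and 10.89 with hairpin 1, against 10.68, 10.58 and 10.70 with the scrambled hairpin. The hairpin 2 arrays were above the scrambled arrays, and hairpin 1 repeat 1 lay among them. It rose with hairpin 2 (0.38, adjusted p = 0.00216), and the value with hairpin 1 was 0.21 (adjusted p = 0.0678), which passed without hairpin 1 repeat 1 (0.30, adjusted p = 0.00297). Itgb3bp, whose protein acts at the centromere, was not called at -0.06 and -0.13, and Itgb1bp2 lay below the filter.

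The other 19 genes above the filter were called in none of the comparisons of hairpin 1 with scrambled, hairpin 2 with scrambled and hairpin 2 with hairpin 1. Besides Itga2, Itga3, Itga6, Itga10, Itgal, Itgb3bp and Itgb7 they were Itga9, Itgb2l, Itgb4, Cdh3, Cdh4, Cdh6, Cdh15, Cdh16, Cdh22, Cdh23, Cdh26 and Cdhr5. Cdh26 differed most among them, by 0.36 with hairpin 1 (adjusted p = 0.0597) and 0.31 with hairpin 2 (adjusted p = 0.0946). The mean of both hairpins against scrambled, used otherwise only to pick partner genes, did call it (0.34, adjusted p = 0.04), and it called no other of the 19. Its hairpin 1 arrays read 6.95, 7.69 and 7.38, against 6.95 to 7.01 with the scrambled hairpin, so that repeat 1 stayed at the scrambled level. The 18 genes below the filter were 5 integrin subunits (Itga4, Itga8, Itgam, Itgb6 and Itgb8), 12 cadherins and Itgb1bp2. The cadherins were Cdh1, Cdh5, Cdh7, Cdh8, Cdh9, Cdh10, Cdh17, Cdh18, Cdh19, Cdh20, Cdhr1 and Cdhr2. They include the epithelial Cdh1 and the endothelial Cdh5. Their values lay between 4.23 and 5.75 on all arrays, and no group mean differed from scrambled by more than 0.24. On mouse chromosome 8 of assembly GRCm38.p6 lie 8 of the cadherin genes (Cdh1, Cdh3, Cdh5, Cdh8, Cdh11, Cdh13, Cdh15 and Cdh16). Only Cdh11 and Cdh13 of these were called, and the protein-coding neighbours of Cdh11, Cdh8 and Cdh5, lay below the filter.

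Other probe sets of the called genes were compared in a fit over all probe sets. Of the 18 called genes 11 had more than 1. Of 4 Cdh13 probe sets 2 rose with hairpin 1 and 3 with hairpin 2, and both Cdhr4 and both Cdh2 probe sets rose with hairpin 2. Both Cdh11 probe sets rose with hairpin 1, but with hairpin 2 its rise rested on 1 of 2, since the other, also above the filter, read 0.16 and did not pass (adjusted p = 0.316). Of 5 Itgav probe sets 2 rose with hairpin 1 and the same number fell with hairpin 2, and the second of these read 0.48 and -0.62. Another Itgav probe set above the filter, with a mean of 6.242, read 0.18 with hairpin 1 and 0.11 with hairpin 2. Neither value passed (adjusted p = 0.276 and 0.565). Itgb3 rested on 1 of 2 probe sets, and its other one read 0.21 with hairpin 2 and did not pass (adjusted p = 0.27). For Itgb1, 1 of 6 was called. Of 4 Itga5 probe sets 2 rose with hairpin 2, the chosen probe set (0.35) and another below the filter (0.25). The remaining Itga5 probe sets, above the filter, read 0.32 and 0.09 and did not pass (adjusted p = 0.061 and 0.697). Averaging all probe sets of a gene, those near the floor included, moved several values by more than 1.5 times. Cdh13 then read 0.63 and 1.55, Cdh11 0.82 and 0.60, Itgav 0.26 and -0.18, each with hairpins 1 and 2 in turn. With hairpin 2, Itgb3 then read 0.67 and Itga1 0.39, while Itgb5 moved the other way to 0.52. All of these were still called.

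**Figure D4:**
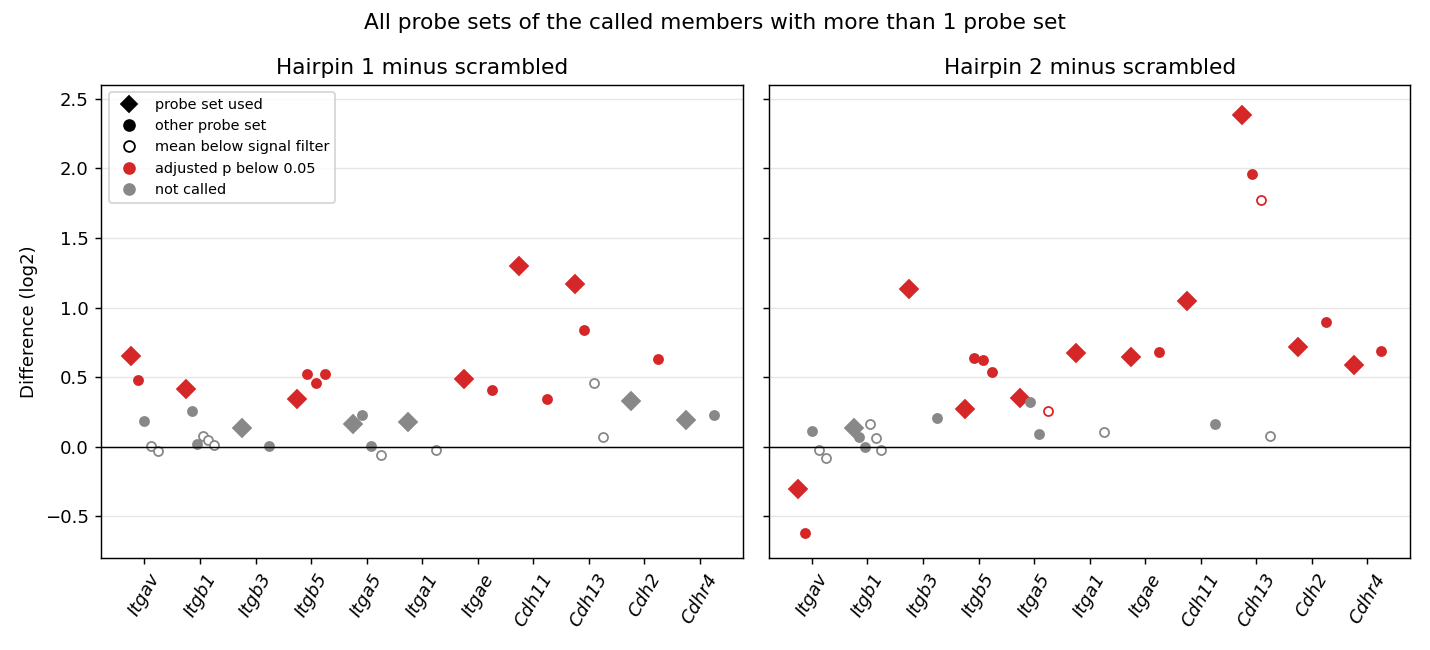
Log2 difference from scrambled (vertical axis) for every probe set of the 11 called genes with more than 1, with hairpin 1 on the left and hairpin 2 on the right. Diamonds are the probe sets used, open symbols lie below the signal filter and red marks an adjusted p below 0.05 over all probe sets; Itgav has 2 red points above 0 on the left and 2 below 0 on the right.

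Genes of the proteins that work with integrins and cadherins were followed in 4 lists. Adaptors that tie integrins to actin rose more often than they fell: of 30 above the filter, hairpin 1 raised 13 and lowered 0, and hairpin 2 raised 15 and lowered 2. That is 43.3% and 56.7% called, against 33.0% and 34.8% of all genes, among which rises also outnumbered falls (23.7% against 9.23%, and 21.5% against 13.3%). Their medians were 0.16 and 0.21, against 0.07 and 0.02 for all genes. The counts of rises with both hairpins include Fblim1, whose mean with the scrambled hairpin, 5.51, lay below the filter. Fblim1 averaged 5.87 with hairpin 1 and 6.19 with hairpin 2, and it passed the filter through these arrays. A call was to be expected of it, and the shares of all genes used the same filter. Fblim1 was picked after its values were seen. Zyx, a focal adhesion protein that senses tension, rose by 1.24 and 1.05 log2 units, and the actin cross-linkers Flna (0.66 and 1.04), Flnc (0.88 and 0.93) and Actn1 (0.48 and 0.66) rose too. The falls with hairpin 2 were those of Fermt2, the kindlin that activates integrins outside blood and epithelium (-0.97), and the GTPase gene Rap1a (-0.54). Both were picked as the count's exceptions after their values were seen.

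Genes for integrin ligands were mostly raised where called. Of 20, hairpin 1 raised 12 and lowered 1, and hairpin 2 raised 12 and lowered 3 (Lamc1 among them, at -0.51), with medians of 0.28 and 0.28. That is 13 and 15 of 20 called, against 33.0% and 34.8% of all genes, of which 9.23% and 13.3% were falls. Lama2, a laminin chain bound by Itga7, rose by 1.28 and 1.59, and Fbln5, an elastic fibre protein bound through its RGD letters, by 0.81 and 0.87. Fn1, the ligand of Itga5 and Itgav, rose by 1.27 and 1.61 and Col1a1, a collagen chain, by 1.69 and 1.98. Col1a1, Col3a1 and Postn of the ligand list also stand in the fibroblast and preadipocyte marker list, so the counts of these lists share genes. Vcam1, a ligand of Itga4, fell with both (-0.47 and -0.54). Thbs1 (1.35 and -0.34), like Itgav, rose with hairpin 1 and fell with hairpin 2. Lamc1, Vcam1 and Thbs1 were also picked after their values were seen.

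Catenins and junction partners, 16 measured, showed 6 rises and 0 falls with hairpin 1 and 9 rises and 1 fall with hairpin 2. That is 37.5% and 62.5% called, against 33.0% and 34.8% of all genes, so the share with hairpin 1 was near the background. The medians were 0.17 and 0.22. Ctnnal1, related to alpha catenin, rose by 1.18 and 0.57, Pkp4, a relative of the plakophilins, by 0.77 and 0.74, the scaffold gene Magi1 by 0.52 and 0.35 and the junction scaffold gene Tjp1 by 0.30 and 0.28. Pkp2, a desmosome gene, rose with hairpin 1 and fell with hairpin 2 (0.50 and -0.85), and it was picked after its values were seen. Of 9 tetraspanins and other membrane partners, 5 rose and 2 fell with each hairpin, which is 77.8% called, against 33.0% and 34.8% of all genes, with medians of 0.16 and 0.12. Sdc4, a co-receptor of fibronectin, rose by 0.50 and 0.86 and the tetraspanin gene Cd9 by 0.63 and 0.80. The tetraspanin gene Cd82 fell by 0.56 and 0.54 and Cd47, which binds integrins and thrombospondin, fell by 0.64 and 0.55.

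**Figure D5:**
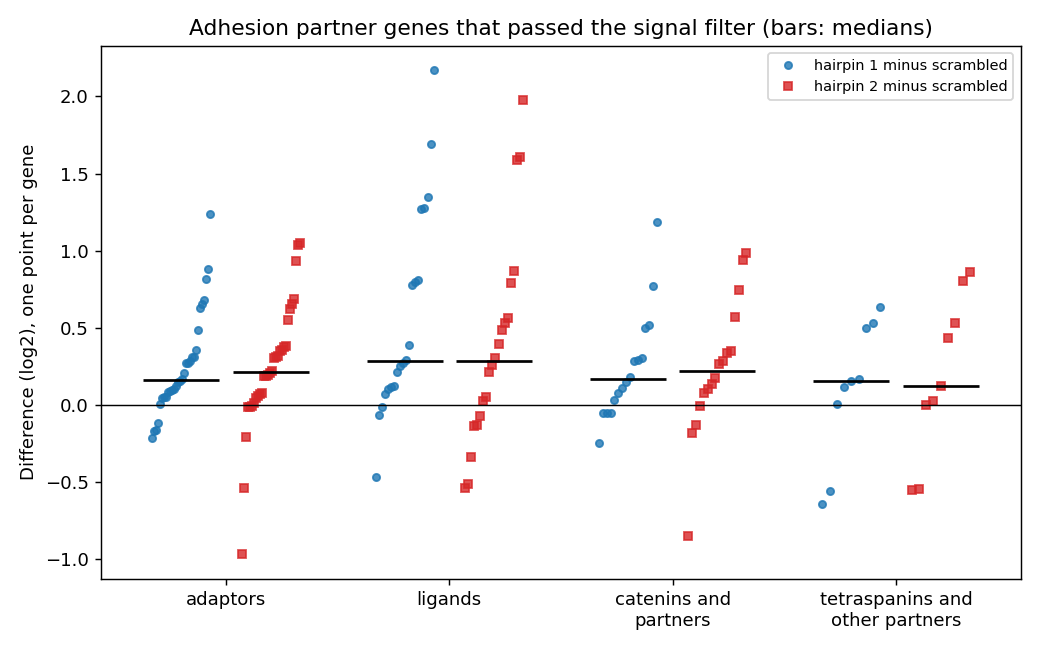
Log2 difference from scrambled (vertical axis) of each gene above the signal filter in the 4 partner lists, for hairpin 1 and hairpin 2 side by side, with a bar at each median. The medians run from 0.12 to 0.28, and the ligand list holds the widest spread.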

How the data were processed

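The deposited values are log2 signals, 1 per probe set and array, made by the authors with RMA according to the submitters' processing notes (no version given). Per the labels' protocols, labelling with biotin followed NuGEN amplification of the RNA. Gene names came from the platform table, and the Entrez identifiers of all 55 genes had an entry in the RefSeq gene list for GRCm38.p6. Of 45101 probe sets, 64 controls were left out, and of the rest 34945 named 1 symbol, 932 several and 9160 none. Genes were tested when the mean of their chosen probe set reached the 30th percentile of gene means (5.72). limma 3.58.1 under R 4.3.3 fitted 1 mean per group across the 9 arrays (eBayes with a mean-variance trend). P-values were two-sided and adjusted by Benjamini-Hochberg across 12735 genes; calls needed an adjusted p under 0.05. The code was tested on simulated data. Genes named are all those called, the 5 members with the highest signal with the scrambled hairpin, their partners, and 4 of each list ranked by p when the hairpins are averaged and set against scrambled. The members and lists were chosen with earlier results of these data known. Differences are of log2 means, compressed near floor and ceiling. Precision is limited by the number of arrays, 3 a group. The alternatives were quantile normalization, equal array medians, other filters, averaged probe sets, array weights, no trend, pairwise fits, a replicate block and each array left out. Value columns with no sample numbered 0.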

Additional observations from a re-analysis of the deposited data

Results flagged for a closer look

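For 8 genes the effects of the hairpins differed by the direct test of hairpin 2 minus hairpin 1 (limma adjusted p below 0.05). That is 21.6% of the 37 members tested, against 29.1% of all genes. Higher with hairpin 2 were Itgb2 (1.44), Cdh13 (1.22), Itgb3 (1.00), Itga1 (0.50), Cdhr4 (0.39) and Cdh2 (0.39). Lower with hairpin 2 were Itgav (-0.96) and Itgb1 (-0.28). For Itgav the effects had opposite signs, -0.31 with hairpin 2 and 0.65 with hairpin 1, and each passed the test. Ebf1 itself read lower with hairpin 2 than with hairpin 1, by -0.50 (adjusted p = 0.00351), and the part of this in the differences was not tested. The calls for Cdh2 and Itgb1 were the least secure of the 8, with adjusted p of 0.0395 and 0.0236, and were lost in 9 and 7 of 18 alternatives. The calls for the other 6 held in every alternative in which they were tested. The other Itgb3 probe set, taken alone, read 0.21 between the hairpins and did not pass (adjusted p = 0.288).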

How the results depend on the processing

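The members called were recounted under 9 other settings and with each array left out. With a filter at the 50th percentile, which left 13 of the 37 genes, hairpin 1 raised 8 and lowered 0. Hairpin 2 then raised 9 and lowered 1, and 3 were higher with hairpin 2 than with hairpin 1. Of all 9097 genes under that filter, hairpin 1 raised 2776 and lowered 1087, and hairpin 2 raised 2449 and lowered 1548. Between the hairpins, 1348 of them were higher with hairpin 2 and 2117 were lower. With array quality weights 14 members rose and 2 fell with hairpin 1, while of all 12735 genes 5238 rose and 2222 fell. Under these weights 5 members were lower with hairpin 2 than with hairpin 1. The last count was 1 with averaged probe sets and 1 with pairwise fits. With each array left out in turn, 10 to 12 rose and 0 to 1 fell with hairpin 1, 12 to 15 rose and 1 to 4 fell with hairpin 2, and 5 to 6 were higher and 1 to 3 lower with hairpin 2 than with hairpin 1. The fall with hairpin 1 is that of Itgax, lost without any scrambled repeat, where it was not tested, or without hairpin 1 repeat 2. With hairpin 2 the count of falls was 1 without scrambled repeat 3 or hairpin 2 repeat 3. The count of genes lower with hairpin 2 than with hairpin 1 was 1 without hairpin 1 repeat 2, hairpin 2 repeat 2 or hairpin 2 repeat 3. For the 18 called genes and Itga6 in 3 comparisons no call changed sign. Array weights moved the number of all genes called with hairpin 1 from 4199 to 7460 and between the hairpins from 3702 to 5990. Deviations of same-numbered arrays of different groups correlated from -0.293 to 0.25. Arrays with different numbers were not compared in this way, so these values cannot decide whether repeat numbers paired the arrays. With a replicate block the counts were 10 and 1 with hairpin 1, 14 and 3 with hairpin 2, and 6 and 2 between the hairpins, as without it. Values near the array floor of about 4 to 6 are limited by signal over background. The cause of the changed counts was not tested beyond the number of genes in the stricter filter.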
